A study of Rattus norvegicus with 50 samples.

Results

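Livers of 6 of the 50 rats of this study were compared here: 3 rats given nevirapine and then galactosamine, and 3 rats given nevirapine without galactosamine, both sampled in the first hours. The arrays were chosen by their sample titles, and every probe set that maps to 1 gene symbol was used, which was 20826 of 31099 probe sets and 14217 genes. All rats were female Brown Norway rats of the Bn/Crl strain with the RT1n haplotype of the major histocompatibility complex (MHC), 9 to 11 weeks old, with 1 array per rat. By the treatment protocol, the combination group (rat61, rat62 and rat63) received nevirapine by mouth at 150 mg/kg for 1 d and 100 mg/kg for 2 d. It then paused for 1 d and continued at 75 mg/kg for 3 d. A label of this group counts more oral doses by day 7 than this schedule gives. On day 7 these rats received 750 mg/kg galactosamine into the peritoneum, and livers were taken 3 h after it and 5 h after the latest oral dose. The nevirapine group (rat31, rat32 and rat33) was sampled 3 h after its first oral dose of 150 mg/kg and 1 h after a sham injection. Days of nevirapine, its dose and the hours since dosing and since the injection therefore differ together with galactosamine. Their parts in a difference cannot be told apart. As references, galactosamine alone (750 mg/kg, rat16 to rat18) and vehicle (rat1 to rat3) were both sampled 3 h after the injection and 5 h after a sham oral dose, with 3 rats each. Nevirapine alone for 48 h and for 15 d, each against vehicle rats of the same time, served as references for longer dosing, also with 3 rats per group. Both nevirapine groups began at 150 mg/kg, and the 15 d group ended at 75 mg/kg. These reference groups were sampled 2 h after the latest oral dose, nevirapine or sham. Days, dose and hours since dosing thus differ between them and the combination rats too.

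Galactosamine is an amino sugar that hepatocytes take up and convert to UDP sugars, which ties up their uridine nucleotides and slows the synthesis of RNA and glycoproteins. Nevirapine, a reverse transcriptase inhibitor used against HIV, is known for liver injury in some patients, and it induces its own metabolism through the nuclear receptors CAR and PXR, which switch on cytochrome P450 and conjugation genes. The study followed the liver after both drugs together because fibrosis arose with the combination and not with either drug alone. The comparison below asks how the combination differed from nevirapine in the first hours after galactosamine.

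Of 6 liver markers, 5 were measured, and their levels lay between log2 12.39 and 14.18 in the 6 arrays. Array medians over the whole study ran from 4.954 to 5.0927, and the GAPDH 3′ minus 5′ signal difference, a sign of RNA degradation, was 0.1887 to 0.2601 in the combination rats and 0.1025 to 0.3066 in the nevirapine rats. The combination rats did not form a tight group. Over all genes rat61 and rat62 correlated at 0.9904 with each other, but rat63 correlated at 0.9801 and 0.9776 with them. Rat63 was about as close to the nevirapine rats (0.9806 to 0.9848) and less close to the galactosamine rats (0.9656 to 0.9686), whereas rat61 (0.9818 to 0.9825) and rat62 (0.9835 to 0.9845) were closer to the galactosamine rats. Rat63 also correlated at 0.9897 with rat73, a combination rat at 8 d. The median gene's SD was 0.1949 in the combination group, the highest of the 17 groups, and 0.1459 in the nevirapine group. The labels give no reason for this split, so values with and without rat63 are given where it matters. In the nevirapine group, rat31 was high for stromal and neutrophil genes, as described with those genes.

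After the combination, 1570 genes were higher than after nevirapine and 1669 were lower, out of 14217. A gene was called at an adjusted p under 0.05 in limma, with the spread of each gene estimated over all 17 groups of the study. Called genes made up 22.8% of all genes, 11% higher and 11.7% lower. The 2 groups of rats did not overlap for 13% of all genes in the higher direction and 10.6% in the lower, and 2147 called genes (1241 higher, 906 lower) were among them. The rises were the larger changes, with 306 genes over 2-fold higher and 189 over 2-fold lower. The median difference of all genes was -0.0016 on the log2 scale, and with cyclic loess normalization 1678 genes were higher and 1666 lower.

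Both rises and falls depended on which rats were compared. When the spread was estimated from the 6 rats alone, 371 genes were called (2.61%), 313 higher (2.2%) and 58 lower (0.408%), so the share of called genes that were higher went from 48.5% to 84.4%. Without rat63, 4388 genes were called (30.9%), 2087 higher (14.7%) and 2301 lower (16.2%). Of these 2301 lower genes, rat63 reached the range of the nevirapine rats or lay above it in 1378. Of the 2087 higher genes it reached that range or lay below it in 786. These genes were picked without rat63, which favours such a result, and the count was not made for other rats. Without rat62, 1588 genes were called, 824 higher and 764 lower. The higher and lower counts were 1173 and 1007 without rat61, and 1653 and 1797 without rat31. They were 1104 and 1120 without rat32, and 1076 and 1134 without rat33. Counts of the gene lists below without a rat are to be read beside these. Of the first calls, 1463 of the 1570 higher genes and 1591 of the 1669 lower genes were also called without rat63, and 311 and 57 were also called from the 6 rats alone.

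Galactosamine alone changed 4680 genes against vehicle (32.9%), 2123 higher (14.9%) and 2557 lower (18%), with no array shared with the comparison above. With quantile normalization these counts turned over, to 2521 higher and 2342 lower. Of the genes lower after the combination, 1041 were also lower after galactosamine alone (62.4% of the first list and 40.7% of the second). Of the higher genes, 692 were also higher (44.1% and 32.6%), and 33 higher and 72 lower genes went the opposite way. The differences of both comparisons correlated at 0.577 (Pearson) over the 14217 genes, and at 0.636 without rat63, given as a description since genes are not independent. The same value was -0.00676 for nevirapine at 48 h and -0.0357 for nevirapine at 15 d. Of the called genes, 758 higher and 563 lower ones were called in the same direction in none of these 3 references. The galactosamine difference was also subtracted from the combination difference, (combination minus nevirapine) minus (galactosamine minus vehicle), called the difference between the comparisons below. This difference also holds the unlike nevirapine days, doses and sampling hours of the first comparison, which the second does not have. It was called for 1680 genes (11.8%), 964 higher (6.78%) and 716 lower (5.04%), and for 697 (4.9%) when the spread came from these 4 groups alone, 367 higher (2.58%) and 330 lower (2.32%). With quantile normalization 839 were higher and 912 lower, so the share of called genes that were higher went from 57.4% to 47.9%.

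**Figure D1:**
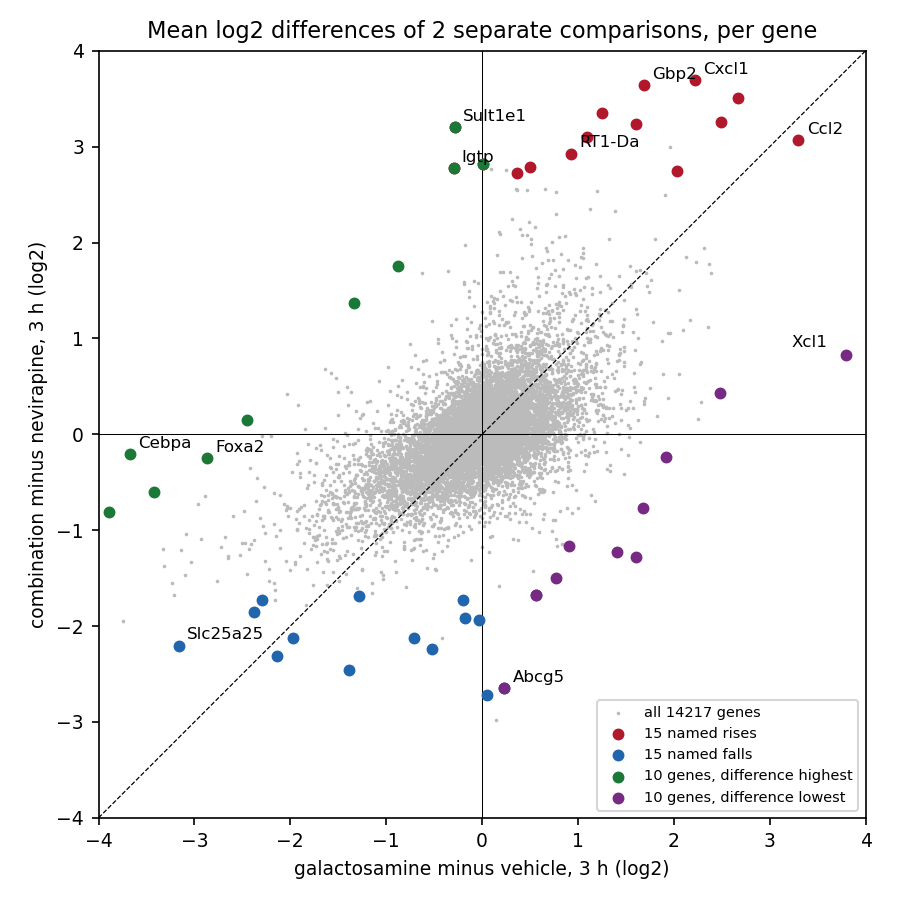
Mean log2 difference of each of the 14217 genes between the combination and nevirapine at 3 h (vertical axis) and between galactosamine and vehicle at 3 h (horizontal axis), with the line of equal differences dashed. Coloured points are the named genes (Sult1e1, Igtp, Ccl11, Abcg5 and Ccnd1 belong to 2 of the sets and carry the colour of the difference set). Points below background in a group are drawn at their fitted values. Cebpa lies far to the left at -3.68 and -0.20, so it moved further with galactosamine alone than here.

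The 606 genes that galactosamine alone lowered at least 2-fold (median -1.32 on the log2 scale) show the split among the combination rats. Relative to the nevirapine mean, their median was -0.83 in rat61, -1.07 in rat62 and -0.064 in rat63. Rat63 thus lay near the nevirapine level for these genes while the other rats were lower. Of the 606 genes, 387 were called lower here and 496 without rat63, and for 275 the fall was called smaller than with galactosamine alone. The 315 genes raised at least 2-fold by galactosamine (median 1.22) had medians of 0.52, 0.91 and 0.52 in rat61, rat62 and rat63, so all 3 medians were above the nevirapine mean. For these genes the nevirapine mean was itself 0.61 above vehicle, against -0.041 for the lowered genes.

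**Figure D2:**
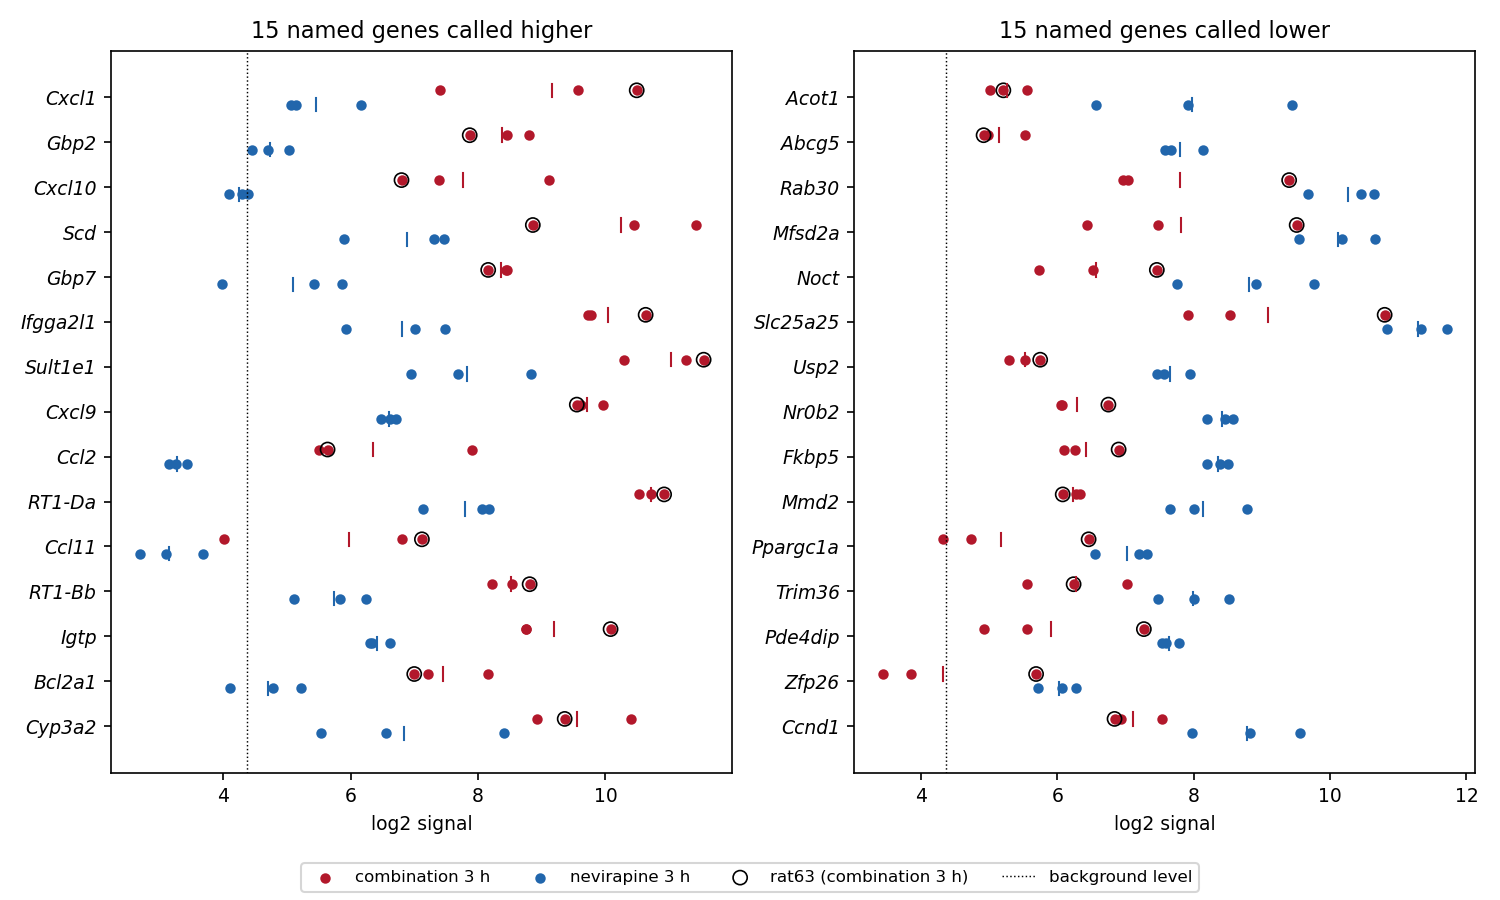
Log2 signal of the 15 genes with the largest called rises (left) and falls (right) whose groups do not overlap, in each combination rat (red) and nevirapine rat (blue), with group means as bars and rat63 circled. For Slc25a25 rat63 was at 10.80, next to the lowest nevirapine rat at 10.83, while rat61 and rat62 were at 8.54 and 7.92. The dotted line is the background level of log2 4.37, the highest mean of the control probe sets for bacterial genes.

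Genes of the interferon response were among the largest rises. Interferon-gamma, which T and NK cells release, raises the transcription factor IRF1, guanylate-binding proteins (GBPs), immunity-related GTPases, the chemokines CXCL9 and CXCL10, and genes of antigen presentation. Of the 37 measured interferon response genes, 20 were called higher and 0 lower, with a median difference of 0.74, and 14 were called higher from the 6 rats alone. Without rat63, 24 were higher and 1 lower. After galactosamine alone 11 were higher and 2 lower.

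Gbp2, a GTPase of the defence against intracellular pathogens, was at 8.80, 8.46 and 7.87 in rat61, rat62 and rat63 and at 5.04, 4.71 and 4.45 in rat31, rat32 and rat33. All combination rats lay far above all nevirapine rats, and the difference was 3.64 ± 0.43 (SE, n = 3 and 3, adjusted p = 1.4e-07), or 12.5-fold. Gbp7, of the same family, was at 8.46, 8.44 and 8.16 against 5.87, 5.43 and 3.98, 9.59-fold higher (adjusted p = 2.8e-06). Galactosamine alone also raised both, at least 2.69-fold for Gbp2 and at least 4.62-fold for Gbp7, against vehicle levels below background. The difference between both comparisons was called higher for Gbp2 (adjusted p = 0.028), with adjusted p = 0.51 for Gbp7, and its size is not given where a group lay below background.

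Cxcl9 encodes a chemokine that draws activated T cells through the receptor CXCR3. Its levels were 9.61, 9.96 and 9.55 after the combination and 6.48, 6.62 and 6.71 after nevirapine. The rats within each group agreed closely, and the rise was 3.10 ± 0.34 (SE, n = 3 and 3, adjusted p = 4.5e-08), 8.6-fold. With galactosamine alone Cxcl9 was at 7.08, 7.04 and 6.92 against 5.70, 5.78 and 6.26 in vehicle, so the combination rats were also above these. The difference between both comparisons was 2.01 ± 0.48 (SE, adjusted p = 0.0044). Cxcl10, a ligand of the same receptor, was at 9.11, 7.39 and 6.80 against 4.39, 4.09 and 4.29, where nevirapine was at background, so the rise was at least 10.5-fold (adjusted p = 7.6e-06). Cxcl10 rose by 2.67 with galactosamine alone, and the rises were not shown to differ (adjusted p = 0.53).

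Igtp, an immunity-related GTPase, rose here and not with galactosamine alone. It was at 8.75, 8.76 and 10.08 in the combination rats and at 6.34, 6.62 and 6.30 in the nevirapine rats, with rat63 the highest. The rise was 2.78 ± 0.36 (SE, n = 3 and 3, adjusted p = 7.1e-07), 6.85-fold. With galactosamine alone its levels of 7.06, 6.44 and 6.61 overlapped those of vehicle (6.97, 6.71 and 7.33), and the difference between the comparisons was 3.07 ± 0.51 (SE, adjusted p = 8.6e-05). Irgm, of the same family, rose by 1.68 here (adjusted p = 2.6e-06) and fell by 0.63 with galactosamine alone (adjusted p = 0.034). Irgm2 was at 10.56, 10.00 and 11.71 against 10.56, 10.61 and 10.67 and was not called (0.15, adjusted p = 0.72), but galactosamine alone lowered it by 2.45. Ifgga2l1, annotated as an interferon-gamma-inducible GTPase, was at 9.72, 9.77 and 10.63 against 7.49, 7.01 and 5.93, 9.39-fold higher (adjusted p = 5.5e-06).

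Irf1, the transcription factor of the pathway, was at 9.83, 8.69 and 9.05 after the combination and at 7.05, 7.17 and 6.87 after nevirapine, with no overlap. It rose by 2.16 ± 0.25 (SE, n = 3 and 3, adjusted p = 1.3e-07), 4.46-fold. With galactosamine alone the difference was 0.55 and not called (adjusted p = 0.087), and the comparisons differed by 1.60 ± 0.35 (SE, adjusted p = 0.0021). The nevirapine rats were below vehicle for Irf1, which was at 8.14, 7.64 and 7.89. Tap1, the peptide transporter of MHC class I, was at 8.28, 8.49 and 8.13 against 6.31, 6.36 and 6.27, 3.96-fold higher (adjusted p = 2.6e-08). The immunoproteasome subunits Psmb9 and Psmb8 rose 4.16-fold and 2.97-fold. Of genes better known for the type I response, Mx1 (adjusted p = 0.081, with nevirapine below background), Isg15 (0.74, 0.10), Irf7 (0.68, 0.087), Oas1a (0.40, 0.33), Ifit1 (0.12, 0.61) and Rsad2 (0.11, 0.86) were not called, although without rat63 Mx1 (0.024), Isg15 (0.022) and Irf7 (0.033) were. Other such members were among the 20 of 37 listed genes called higher and are not named here. The type of interferon was not tested. The transcript of Ifng itself was below background in both groups, so it has no size.

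The upstream sequences of 5 rising genes, and of 2 genes that fell, are shown because they carry letter patterns of known response elements. They are the 250 bases before the RefSeq gene start (build GRCr8), with pattern matches in capitals and all other bases in lower case. On both strands 9 patterns were searched: GAAA followed after any 2 bases by GAAA for the interferon-stimulated response element (ISRE), TTCNNNGAA for the gamma-activated site (GAS), TGACTCA for AP-1, GGG followed after any 2 bases by TTTCC for NF-kB, TGACGTCA for the cyclic AMP response element (CRE), TGACNNNGC for the antioxidant response element, CACGTG for the E-box, TGATGCAAT for the combined C/EBP and ATF element and TTATGTAA for the D-box. A match is a description and not a binding site. Where a match is on the opposite strand, the capitals spell its reverse complement. The AP-1 match of Cxcl10 lies inside its antioxidant match, and no other matches share bases in these sequences.
Gbp2 (chr2:234005477-234005726, plus strand): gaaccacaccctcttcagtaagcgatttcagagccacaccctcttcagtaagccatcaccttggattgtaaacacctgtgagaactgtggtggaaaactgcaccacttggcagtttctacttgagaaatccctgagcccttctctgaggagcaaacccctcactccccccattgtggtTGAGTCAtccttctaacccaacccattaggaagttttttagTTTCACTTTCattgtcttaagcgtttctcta
Gbp7 (chr2:233948639-233948888, plus strand): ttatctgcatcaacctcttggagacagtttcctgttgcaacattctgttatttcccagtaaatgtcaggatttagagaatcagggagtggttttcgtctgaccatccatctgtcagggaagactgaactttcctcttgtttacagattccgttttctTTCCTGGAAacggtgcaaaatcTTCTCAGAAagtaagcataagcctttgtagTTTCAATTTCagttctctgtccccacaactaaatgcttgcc
Igtp (chr10:42874797-42875046, plus strand): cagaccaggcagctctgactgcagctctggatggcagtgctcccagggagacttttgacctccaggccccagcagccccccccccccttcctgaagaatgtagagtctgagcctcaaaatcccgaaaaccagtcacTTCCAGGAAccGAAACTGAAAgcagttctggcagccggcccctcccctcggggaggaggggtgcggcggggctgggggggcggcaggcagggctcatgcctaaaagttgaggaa
Cxcl10 (chr14:15988816-15989065, plus strand): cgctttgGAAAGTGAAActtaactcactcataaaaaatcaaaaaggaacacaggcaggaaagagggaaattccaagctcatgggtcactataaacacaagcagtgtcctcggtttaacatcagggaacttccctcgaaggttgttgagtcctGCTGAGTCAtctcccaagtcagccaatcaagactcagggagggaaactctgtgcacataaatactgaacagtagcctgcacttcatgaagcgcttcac
Cxcl1 (chr14:17479322-17479571, minus strand): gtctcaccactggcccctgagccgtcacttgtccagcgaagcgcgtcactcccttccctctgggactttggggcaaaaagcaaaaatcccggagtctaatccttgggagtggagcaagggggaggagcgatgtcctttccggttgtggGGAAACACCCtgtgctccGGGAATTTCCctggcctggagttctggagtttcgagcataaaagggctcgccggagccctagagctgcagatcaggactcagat
Slc25a25 (chr3:36116582-36116831, minus strand): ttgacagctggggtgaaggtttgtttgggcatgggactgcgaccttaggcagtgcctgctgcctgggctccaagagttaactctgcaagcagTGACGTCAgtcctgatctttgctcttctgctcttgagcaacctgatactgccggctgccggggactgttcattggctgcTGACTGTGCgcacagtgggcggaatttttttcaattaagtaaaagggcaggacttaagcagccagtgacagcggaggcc
Ppargc1a (chr14:63634058-63634307, plus strand): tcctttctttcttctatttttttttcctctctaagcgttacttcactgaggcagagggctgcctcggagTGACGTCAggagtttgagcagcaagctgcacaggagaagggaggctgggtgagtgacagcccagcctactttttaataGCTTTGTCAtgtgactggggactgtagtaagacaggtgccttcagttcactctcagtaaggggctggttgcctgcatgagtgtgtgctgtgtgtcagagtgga
Capitals mark an AP-1 and an ISRE match in Gbp2, an ISRE match and the overlapping AP-1 and antioxidant matches in Cxcl10, 2 GAS matches and an ISRE match in Gbp7, a GAS and an ISRE match in Igtp, 2 NF-kB matches in Cxcl1, and 1 CRE and 1 antioxidant match each in Slc25a25 and Ppargc1a. None of these sequences held the E-box, C/EBP and ATF or D-box letters.

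Of the 37 interferon response genes, 30 had an upstream sequence, and 20 of these held the ISRE letters and 12 the GAS letters. Over all 33469 upstream sequences of the same length the shares were 3.41% and 7.67%. The ISRE and GAS patterns were chosen after the values had been seen. Of the 15 named rises, 13 had a sequence, of which 5 held the ISRE and 3 the GAS letters, against 0 and 1 of 13 among the named falls. The NF-kB letters were present in 10 of 34 cytokine and NF-kB feedback genes, against 1.3% of all sequences, and the AP-1 and CRE letters were present in 4.05% and 1.59% of all sequences. The antioxidant letters were present in 10.1% of all sequences, the E-box in 5.59%, the C/EBP and ATF element in 0.161% and the D-box in 0.828%. Of the 6 MHC class II genes with a sequence, 0 held the ISRE and 0 the GAS letters, which says only that these letters are not in this window.

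The MHC class II genes rose as a block. MHC class II molecules present extracellular peptides to CD4 T cells, and their genes are switched on in antigen-presenting cells, and under interferon-gamma also in other cells, by the coactivator CIITA. RT1-Da was at 10.52, 10.71 and 10.92 against 8.18, 8.06 and 7.14, and RT1-Bb at 8.22, 8.54 and 8.81 against 6.25, 5.84 and 5.12. For both, every combination rat was over 2 log2 units above the nevirapine mean. RT1-Da rose 7.6-fold (2.93 ± 0.26, SE, n = 3 and 3, adjusted p = 1.4e-09) and RT1-Bb 6.9-fold (adjusted p = 9.1e-09). The invariant chain Cd74 was at 10.51, 10.74 and 10.97 against 8.78, 8.39 and 7.39, 5.87-fold higher, and the peptide-loading genes RT1-DMa and RT1-DMb rose 4.24-fold and 3.54-fold. Ciita itself changed little, from 4.88, 4.80 and 4.95 to 5.37, 5.30 and 5.05 (1.29-fold, adjusted p = 0.015), and was not called from the 6 rats alone (adjusted p = 0.18).

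All 8 class II genes were called higher (median 2.40), a list put together after their values were seen, and its count is a description. Galactosamine alone raised 2 of the 8, with a median of 0.47, and in all 8 the difference between the comparisons was called. For RT1-Da it was 2.00 ± 0.37 (SE, adjusted p = 0.00032) and for Cd74 2.19 ± 0.35 (SE, adjusted p = 6.7e-05). Longer nevirapine without galactosamine did not show these levels. RT1-Da was at 6.76 to 7.09 after 48 h and 8.12 to 8.52 after 15 d of nevirapine, under all 3 combination rats. In the combination group it was at 10.14 to 11.12 at 8 d after galactosamine, while Gbp2 was at 4.64 to 5.92 by then. Cxcl9 was at 5.74 to 6.19 and 6.34 to 6.69 in those nevirapine groups, and Igtp at 6.76 to 7.01 and 7.00 to 7.57. Close relatives among the GBP, IRG, RT1 and Cyp3a genes can share probe targets, so a single member of these families is less certain than the family.

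Chemokine and NF-kB feedback genes also rose, as many of them did with galactosamine alone. NF-kB drives genes that call in neutrophils and monocytes and genes that restrain the response. Of 47 measured members, 20 were higher and 0 lower (median 0.42), and 9 were higher from the 6 rats alone, with 13 below background in both groups. Galactosamine alone raised 20 and lowered 4. Cxcl1, a neutrophil chemokine, was the largest named rise. It was at 9.57, 7.40 and 10.49 in rat61, rat62 and rat63 and at 6.16, 5.15 and 5.07 after nevirapine, which spans over 3 log2 units within the combination group but without overlap. The difference was 3.69 ± 0.80 (SE, n = 3 and 3, adjusted p = 0.00083), 12.9-fold. With galactosamine alone it was at 8.25, 7.87 and 8.73 against 6.86, 4.0 and 7.33, and the difference between the comparisons was 1.47 ± 1.14 (SE, adjusted p = 0.46).

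Ccl2, which recruits monocytes, was at 7.90, 5.51 and 5.64 against 3.43, 3.26 and 3.16. Rat61 was far above the other combination rats, and the nevirapine level was background, so the rise was at least 3.94-fold (adjusted p = 1.6e-06). Galactosamine alone raised Ccl2 at least 5.53-fold, and the difference between the comparisons had adjusted p = 0.86. Il1b, an inflammasome-processed cytokine, was at 9.49, 8.10 and 8.08 against 6.09, 6.32 and 5.78, 5.64-fold higher (adjusted p = 4.1e-07). Bcl2a1, an NF-kB target that protects leukocytes from apoptosis, was at 8.15, 7.21 and 7.00 against 5.23, 4.78 and 4.11, 6.71-fold higher (adjusted p = 9.2e-08). The macrophage chemokines Ccl3 (3.43-fold) and Ccl4 (3.83-fold) rose with rat61 the highest for both, and neither was called from the 6 rats alone (adjusted p = 0.14 and 0.073). Tnf (0.08, adjusted p = 0.69) was not called.

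Some chemokine and NF-kB genes parted from galactosamine alone. Ccl11 and Bcl3 are not in the list above and are given because the difference between the comparisons was called for them. Ccl11, the eosinophil chemokine eotaxin, was at 4.01, 6.80 and 7.12 against 3.68, 2.69 and 3.10, with rat62 and rat63 high and rat61, below the background level, little above rat31. It rose at least 3.04-fold (adjusted p = 0.00044), but not from the 6 rats alone (0.093). Galactosamine alone left it at 3.03, 2.94 and 2.80, below background, and the call of the difference between the comparisons (adjusted p = 0.019) was lost without rat63 (adjusted p = 0.074) or without rat62 (adjusted p = 0.058). Bcl3, an atypical IkB protein, was at 8.18, 6.64 and 8.69 against 6.34, 6.31 and 6.75, with rat62 inside the nevirapine range (1.37, adjusted p = 0.0011), and fell with galactosamine alone (-1.33). Socs3, a feedback inhibitor of cytokine signalling, rose 2.04-fold here and did not pass with galactosamine alone (-0.12, adjusted p = 0.66), and the difference was 1.15 ± 0.25 (SE, adjusted p = 0.0021). Cxcl11, the remaining CXCR3 ligand, was at 9.68, 7.84 and 9.14 against 8.60, 8.94 and 8.95 and was not called, while galactosamine alone lowered it by 1.85. Vcam1, an adhesion molecule, was at 8.86, 8.80 and 8.67 against 8.68, 8.35 and 8.16 and not called, and both groups stood well above the vehicle rats (6.86, 6.60 and 7.29).

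Most markers of macrophages rose. Whole liver was measured, so more cells of a type and more RNA per cell cannot be told apart. Of 22 Kupffer cell and macrophage markers, 19 were higher and 0 lower (median 1.11), 9 from the 6 rats alone, 19 without rat63 and 11 without rat33. Gpnmb, a lysosomal glycoprotein of activated macrophages, was at 9.83, 10.17 and 10.44 against 8.00, 7.72 and 7.10, 5.8-fold higher (adjusted p = 2.7e-06). The lysosomal marker Cd68 was at 8.89, 8.90 and 8.74 against 7.80, 7.86 and 7.00, and rat33 was the lowest of the nevirapine rats. Cd68 rose 2.45-fold, Lgals3 5.08-fold, the F4/80 gene Adgre1 2.3-fold and the growth factor receptor Csf1r 2.08-fold. The Kupffer cell lectin Clec4f did not follow, at 10.50, 10.56 and 10.44 against 10.49, 10.49 and 9.71 (0.27, adjusted p = 0.44). The summed linear signal of the list was 14481 to 15675 in the combination rats and 5377 to 9468 in the nevirapine rats. Galactosamine alone raised 19 of the list, and the difference between the comparisons was called for 1 member. The macrophage and T cell markers moved with the interferon, class II and chemokine genes above, and their part in those rises was not tested.

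Of 27 T and NK cell markers, 11 were higher and 0 lower (median 0.37), 7 of them from the 6 rats alone, and 10 were below background in both groups. Gzma, a granzyme of cytotoxic cells, was at 6.53, 7.52 and 6.58 against 4.55, 4.25 and 4.15. All combination rats were well above background and the nevirapine rats lay at it, for a rise of at least 5.46-fold (adjusted p = 3.3e-09). Gzma was at 5.28, 5.35 and 5.41 with galactosamine alone, and the difference between the comparisons was called higher (adjusted p = 0.00022). Prf1, the pore-forming perforin, was at 5.60, 6.62 and 5.84 against 4.57, 4.98 and 4.57, 2.49-fold higher, but the nevirapine rats were below the vehicle rats (5.46, 5.08 and 5.64). Cd8a rose at least 1.65-fold and Cd3e at least 1.73-fold against background levels, and Cd4 did not pass (0.18, adjusted p = 0.43). The summed signal of the list was 847 to 1129 against 573 to 638.

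Other cell markers moved less evenly. Of 22 endothelial markers, 5 were higher and 0 lower, and the higher count was 3 without rat62, 11 without rat63 and 3 without rat33. Galactosamine alone raised 14 of the list and lowered 0. The difference between the comparisons was called lower for 6 members and higher for 1. Plvap, a protein of endothelial fenestrae, was at 8.18, 8.09 and 7.61 against 7.01, 6.97 and 6.36, 2.26-fold higher (adjusted p = 2.7e-05), and galactosamine alone had no called effect on it (0.11, adjusted p = 0.70). Clec14a, an endothelial lectin, was at 8.19, 8.56 and 8.02 against 8.37, 8.65 and 8.46 and not called. Galactosamine alone raised Clec14a from 7.29, 7.06 and 7.30 to 9.17, 9.23 and 9.01, so both nevirapine-treated groups lay between vehicle and galactosamine, and the difference of the comparisons was -2.16 ± 0.31 (SE, adjusted p = 9.9e-06). Of 28 stellate cell and fibroblast markers, 10 were higher and 0 from the 6 rats alone, with 2 without rat62, 6 without rat63, 3 without rat32 and 3 without rat33. Rat31 carried high levels of these: Vim, an intermediate filament, was at 9.47, 7.19 and 7.30 in the nevirapine rats and at 9.14, 9.90 and 9.61 in the combination rats. The collagens Col1a1 (0.89, adjusted p = 0.11) and Col3a1 (0.71, 0.15) were not called. The summed signal of the list was 5646 to 10435 in the nevirapine rats and 8522 to 13740 in the combination rats, so the groups overlapped. Lcn2, an iron-binding protein of neutrophils and injured epithelium, was at 10.31, 9.73 and 10.89 against 11.74, 5.42 and 5.46, and with rat31 the highest of all 6 it was not called (adjusted p = 0.063). Of 10 neutrophil markers, 4 were higher, 0 from the 6 rats alone, and 7 were below background in both groups. Of the remaining cell lists, 2 of 11 B and plasma cell markers, 1 of 18 mast cell and eosinophil markers, 3 of 13 cholangiocyte markers and 0 of 8 erythrocyte and platelet markers were higher, and none of these was lower. The cholangiocyte markers had a median difference of 0.50, and their higher count was 1 without rat62, 5 without rat63, 6 without rat31, 1 without rat32 and 1 without rat33.

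**Figure D3:**
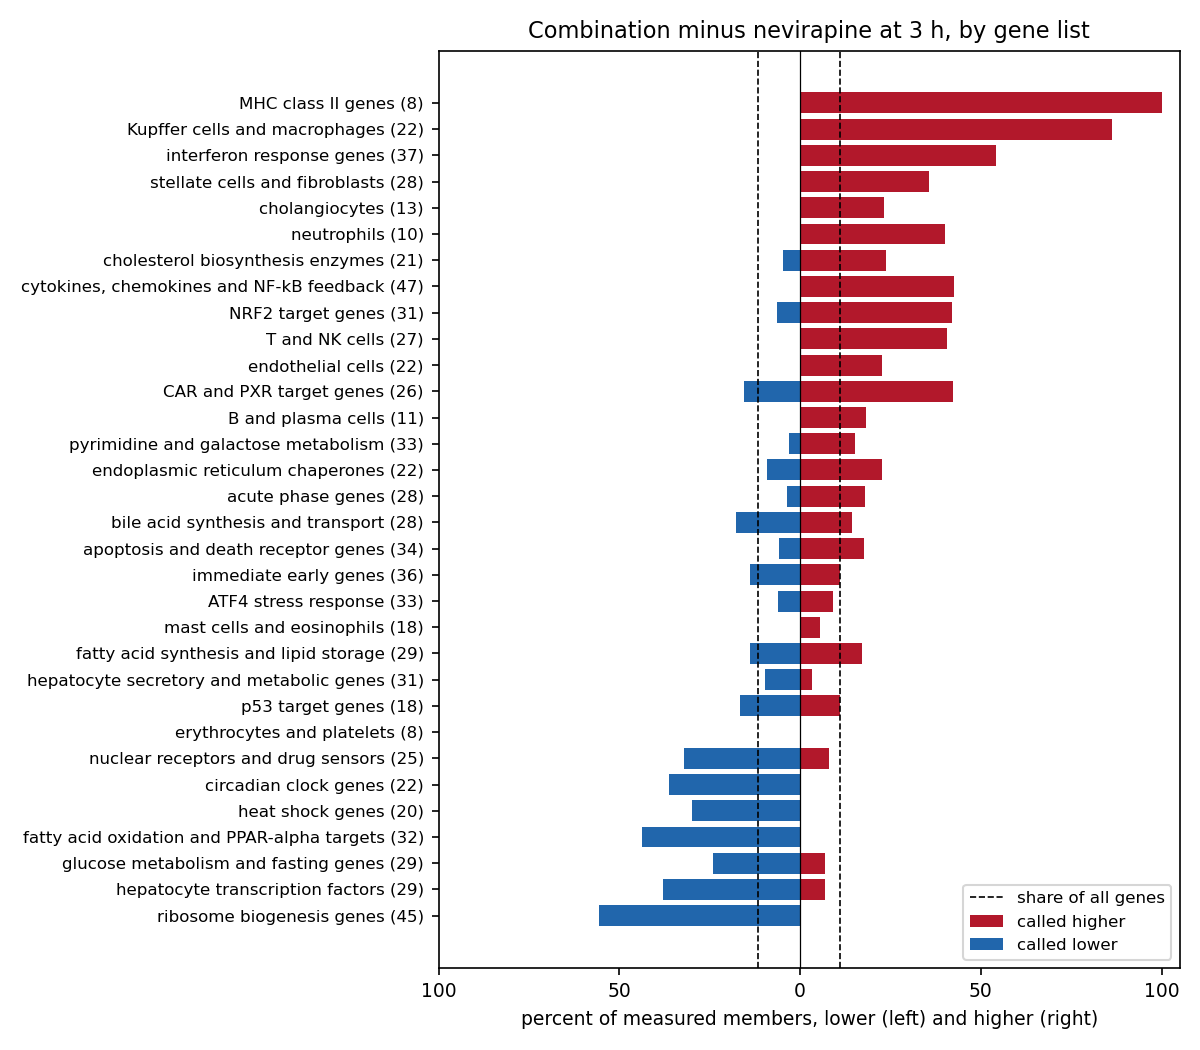
Percent of the measured members (number in brackets) of each gene list that were called higher (red, right) or lower (blue, left) after the combination than after nevirapine, with lists ordered by their median difference. Dashed lines give the share of all genes, 11% higher and 11.7% lower. Macrophage, interferon and class II genes lie at the top, and ribosome biogenesis genes, with 25 of 45 lower, at the bottom.

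Several drug-metabolism genes were higher after the combination, at levels also seen after longer nevirapine alone. CAR and PXR, once activated by a drug, raise enzymes and transporters that clear it. Of 26 measured targets (37 listed), 11 were higher and 4 lower, with 9 and 0 from the 6 rats alone. The lower count was 0 without rat61, 2 without rat31 and 2 without rat32. Nevirapine alone raised 17 of them at 48 h, where 17.4% of all genes were called, 11% higher and 6.44% lower, and 16 at 15 d, where 13.9% were called, 5.13% higher and 8.79% lower. Of the genes called in these references, 63% were higher at 48 h (50.4% with cyclic loess normalization) and 36.9% at 15 d (52%), so their balance of directions moved with the scaling. Galactosamine alone raised 2 and lowered 1.

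Ces2c, a carboxylesterase, was at 10.73, 11.08 and 11.17 in the combination rats and 9.88, 8.83 and 9.07 in the nevirapine rats, with no overlap and 3.33-fold higher (1.73 ± 0.25, SE, n = 3 and 3, adjusted p = 5.2e-06). After 48 h and 15 d of nevirapine alone it was at 11.12 to 12.07 and 11.40 to 11.98. The combination rats were nearer to these than to the rats after the first dose. Ephx1, the microsomal epoxide hydrolase, was at 11.88, 12.23 and 12.24 against 10.80, 10.72 and 10.51, 2.71-fold higher (adjusted p = 1.7e-05), and at 11.89 to 12.85 after 48 h of nevirapine. Abcc3, an export pump for conjugates, rose 3.02-fold from 7.68, 7.30 and 6.85 to 8.60, 9.20 and 8.81, and Gstm3, a glutathione transferase, rose 3.66-fold (adjusted p = 0.00068). Cyp3a2, a P450 of the subfamily induced through PXR, was at 8.92, 10.40 and 9.36 against 8.41, 6.56 and 5.53, 6.62-fold higher (adjusted p = 0.0070), but rat31 was close to the combination rats and the call was lost from the 6 rats alone (0.084), without rat33 (0.079) or without rat62 (0.068). Cyp3a23-3a1 was at 13.39, 13.37 and 13.46 against 13.19, 13.36 and 13.33, high in both groups and not called.

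Sult1e1, the oestrogen sulfotransferase, followed the same order. It was at 10.29, 11.27 and 11.54 in the combination rats and 7.69, 6.95 and 8.83 in the nevirapine rats, 9.24-fold higher (3.21 ± 0.67, SE, n = 3 and 3, adjusted p = 0.00054). Galactosamine alone left it at 6.79, 7.62 and 5.27 against 7.41, 8.01 and 5.12, so the difference between the comparisons was 3.49 ± 0.95 (SE, adjusted p = 0.012), lost with only the 4 groups in the fit (0.077). Nevirapine alone raised it by 3.72 at 48 h and by 5.20 at 15 d. Targets that fell were the stress gene Gadd45b (-1.17, adjusted p = 0.032), Cyp2a2 (-1.09, 0.024), the haem synthesis enzyme Alas1 (-0.77, 0.013) and the P450 reductase Por (-0.72, 0.0093). None of these falls was called from the 6 rats alone, by limma, where 58 genes were. The groups overlapped for Gadd45b (8.35 to 10.78 against 10.48 to 10.66) and Alas1 (10.84 to 12.32 against 12.13 to 12.33). They also overlapped for Cyp2a2 (4.45 to 5.28 against 5.22 to 6.26). The combination means of Gadd45b (9.39) and Alas1 (11.44) were above vehicle at 3 h (8.45 and 10.87). That of Cyp2a2 (4.81) was below vehicle (5.29).

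NRF2 targets, the antioxidant and detoxification genes, showed 13 of 31 higher and 2 lower (median 0.41), with 9 higher from the 6 rats alone. The lower count was 1 without rat61, 0 without rat62, 6 without rat63 and 1 without rat32. Hmox1, haem oxygenase, was at 10.18, 9.48 and 10.02 against 7.70, 7.72 and 7.36, 4.92-fold higher (2.30 ± 0.25, SE, n = 3 and 3, adjusted p = 3.6e-08). Galactosamine alone raised it by 0.78, less than here by 1.52 ± 0.35 (SE, adjusted p = 0.0032), and it was at 7.85 to 8.14 and 7.40 to 7.89 after 48 h and 15 d of nevirapine alone, below all combination rats. Nqo1, a quinone reductase, was at 9.53, 9.37 and 9.22 against 7.57, 7.99 and 7.83, 2.98-fold higher (adjusted p = 5.8e-07), not called with galactosamine alone (-0.05, adjusted p = 0.89), and at 9.39 to 9.45 after 48 h of nevirapine. Gclc, which makes glutathione, was not called (-0.10, adjusted p = 0.79). Srxn1 and Osgin1 fell (-1.58 and -1.19), and rat63 lay within the nevirapine range for both.

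**Figure D4:**
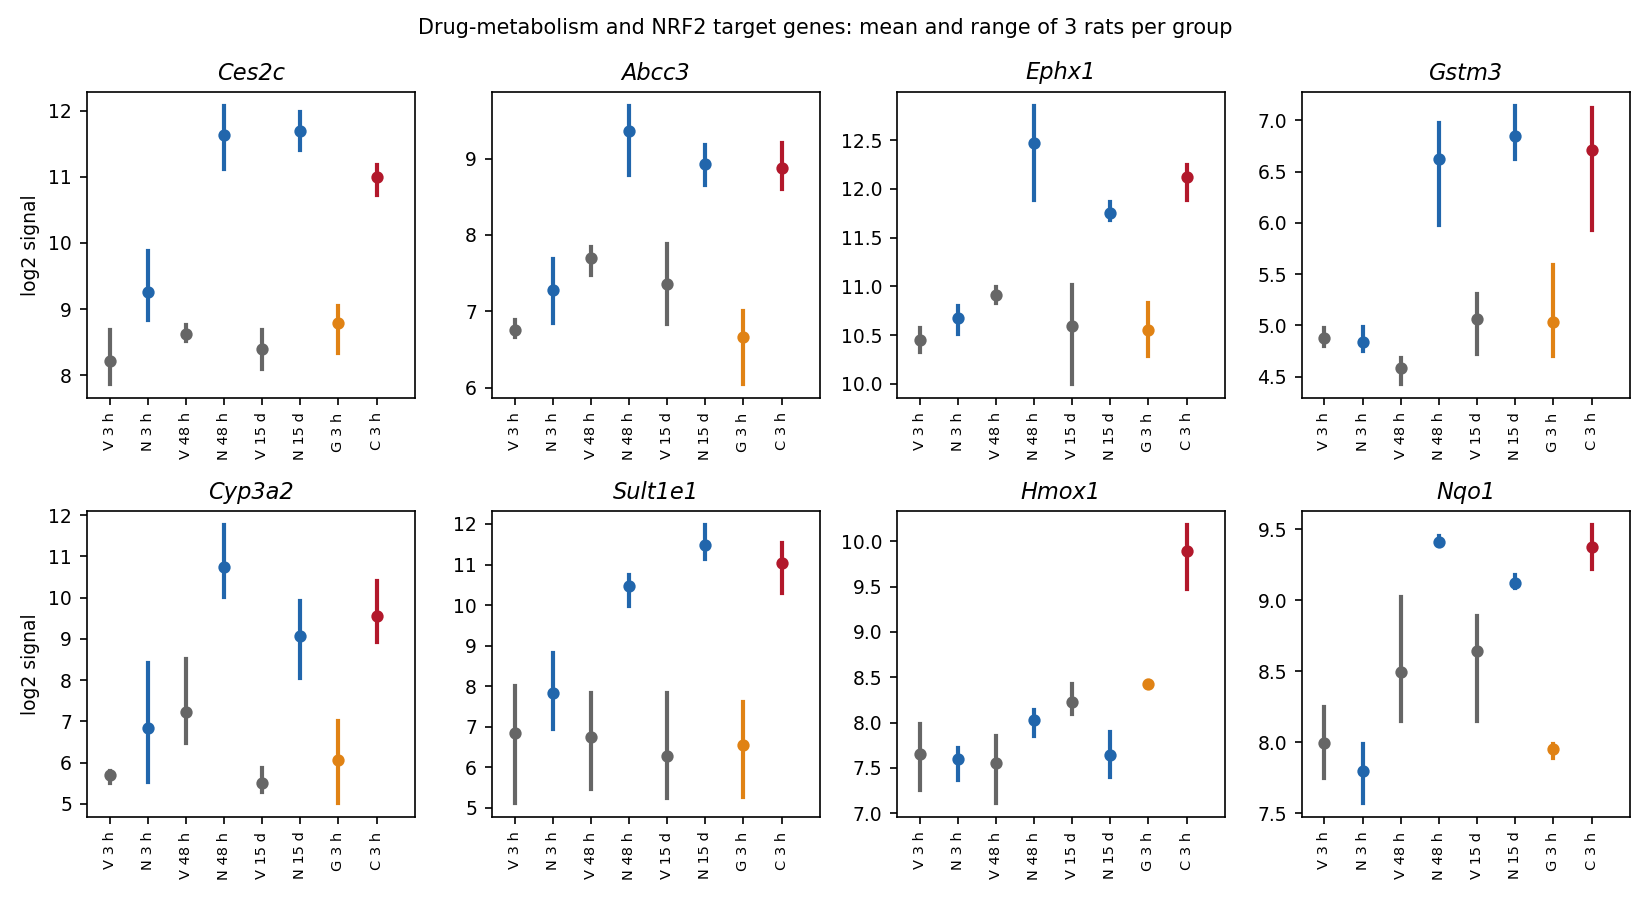
Mean (point) and range (line) of the log2 signal of 3 rats per group for 6 drug-metabolism genes and the NRF2 targets Hmox1 and Nqo1, after vehicle (V), nevirapine (N), galactosamine (G) and the combination (C), each panel on its own scale. Ces2c, Abcc3, Ephx1, Gstm3 and Sult1e1 after the combination lie near nevirapine at 48 h and 15 d and above nevirapine and galactosamine at 3 h, whereas Hmox1 is highest after the combination.

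Hepatocyte transcription factors differed between the combination and galactosamine alone. These factors keep hepatocyte identity and drive plasma protein, lipid and bile acid genes. Galactosamine alone lowered 21 of 29 and raised 1. After the combination 11 were lower and 2 higher than after nevirapine (median -0.39). From the 6 rats alone 2 were lower, and 15 without rat63. The difference between the comparisons was called higher for 9 factors and lower for 0.

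Cebpa, which holds hepatocytes in their differentiated state, was at 9.16, 8.60 and 9.08 in the combination rats and 9.43, 8.99 and 9.04 in the nevirapine rats. The groups overlapped and the difference was -0.20 ± 0.18 (SE, n = 3 and 3, adjusted p = 0.46). With galactosamine alone it was at 6.27, 6.56 and 6.41 against 10.05, 10.19 and 10.03 in vehicle, a fall of 3.68 shared by all 3 rats. The difference between the comparisons was 3.47 ± 0.25 (SE, adjusted p = 3.8e-12), and it held with only the 4 groups in the fit (2.6e-05). Foxa2, a pioneer factor, was at 8.61, 8.01 and 8.56 against 9.10, 8.50 and 8.34, while galactosamine alone lowered it to 6.29, 5.82 and 6.04 from 8.89, 8.77 and 9.10. The difference was 2.62 ± 0.31 (SE, adjusted p = 4.2e-07). Tbx3, a T-box factor, was at 6.05, 6.19 and 7.13 against 6.79, 7.16 and 7.22, and at 4.04, 3.89 and 3.59 with galactosamine alone, where it lay below background (adjusted p = 2.8e-07 for the difference between the comparisons). For these 3 genes all combination rats, rat63 included, were more than 1.5 log2 units above the highest galactosamine rat.

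Other factors fell as with galactosamine, and rat63 did not share the fall. Hnf4a, a master regulator of liver genes, was at 10.04, 9.89 and 11.37 against 11.58, 11.97 and 11.70, so rat61 and rat62 were over 1.5 log2 units below every nevirapine rat and rat63 was just below them. The fall was 2.49-fold (-1.32 ± 0.20, SE, n = 3 and 3, adjusted p = 9.5e-06), -1.79 without rat63, and was not called from the 6 rats alone (0.10). Galactosamine alone lowered it by 1.61. Nr5a2, a nuclear receptor of bile acid synthesis, was at 6.55, 6.33 and 8.46 against 8.35, 8.38 and 8.42, with rat63 above all nevirapine rats. Foxa3 fell in all 3 rats, at 6.05, 5.78 and 6.38 against 7.01, 7.39 and 7.10 (-1.09, adjusted p = 7.5e-05), but less than with galactosamine alone (-2.93), by 1.84 ± 0.27 (SE, adjusted p = 2.1e-05). Cebpd, which rises in the acute phase response, was higher, at 8.68, 7.47 and 7.53 against 6.80, 6.60 and 6.75 (2.26-fold, adjusted p = 0.00092).

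Cyp7a1, the rate-limiting enzyme of bile acid synthesis, was at 7.88, 7.41 and 10.91 in the combination rats and 10.09, 8.78 and 9.77 in the nevirapine rats. Rat63 was the highest of the 6 and rat61 and rat62 the lowest, and the difference was not called (-0.81, adjusted p = 0.45). Galactosamine alone lowered it to 5.18, 5.53 and 5.30, and the difference between the comparisons of 3.08 ± 0.98 (SE, adjusted p = 0.033) was lost without rat63 (1.99, adjusted p = 0.16) and with only the 4 groups in the fit (0.11). Without rat63 the main difference was -1.90 (adjusted p = 0.029). The sterol exporters fell in all 3 rats. Abcg5, a partner in the transporter that moves cholesterol into bile, was at 4.99, 5.53 and 4.92 against 7.67, 7.58 and 8.14. No rats overlapped, the fall was 6.27-fold (-2.65 ± 0.37, SE, n = 3 and 3, adjusted p = 3.1e-06), and it was called from the 6 rats alone (0.0046).

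Galactosamine alone left Abcg5 at 7.16, 7.29 and 7.10 against 7.25, 6.84 and 6.77 in vehicle, and the difference between the comparisons was -2.88 ± 0.53 (SE, adjusted p = 0.00030). Its partner Abcg8 was at 3.95, 3.49 and 3.23 against 5.06, 5.11 and 5.27, at least 1.71-fold lower (adjusted p = 3.6e-05), below background after the combination. Abcg5 was at 7.85 to 8.13 after 48 h and 6.84 to 7.59 after 15 d of nevirapine alone, above all 3 combination rats. Abcb4, which exports phospholipid into bile, fell 1.85-fold (adjusted p = 3.6e-05) and did not pass with galactosamine alone (0.29, adjusted p = 0.14). Nr0b2, the bile acid sensor's repressor SHP, was at 6.06, 6.07 and 6.75 against 8.58, 8.46 and 8.20, 4.35-fold lower (adjusted p = 3.2e-05), and the nevirapine rats were above vehicle (7.29, 6.77 and 7.44). Of 28 bile acid genes in all, 4 were higher and 5 lower.

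**Figure D5:**
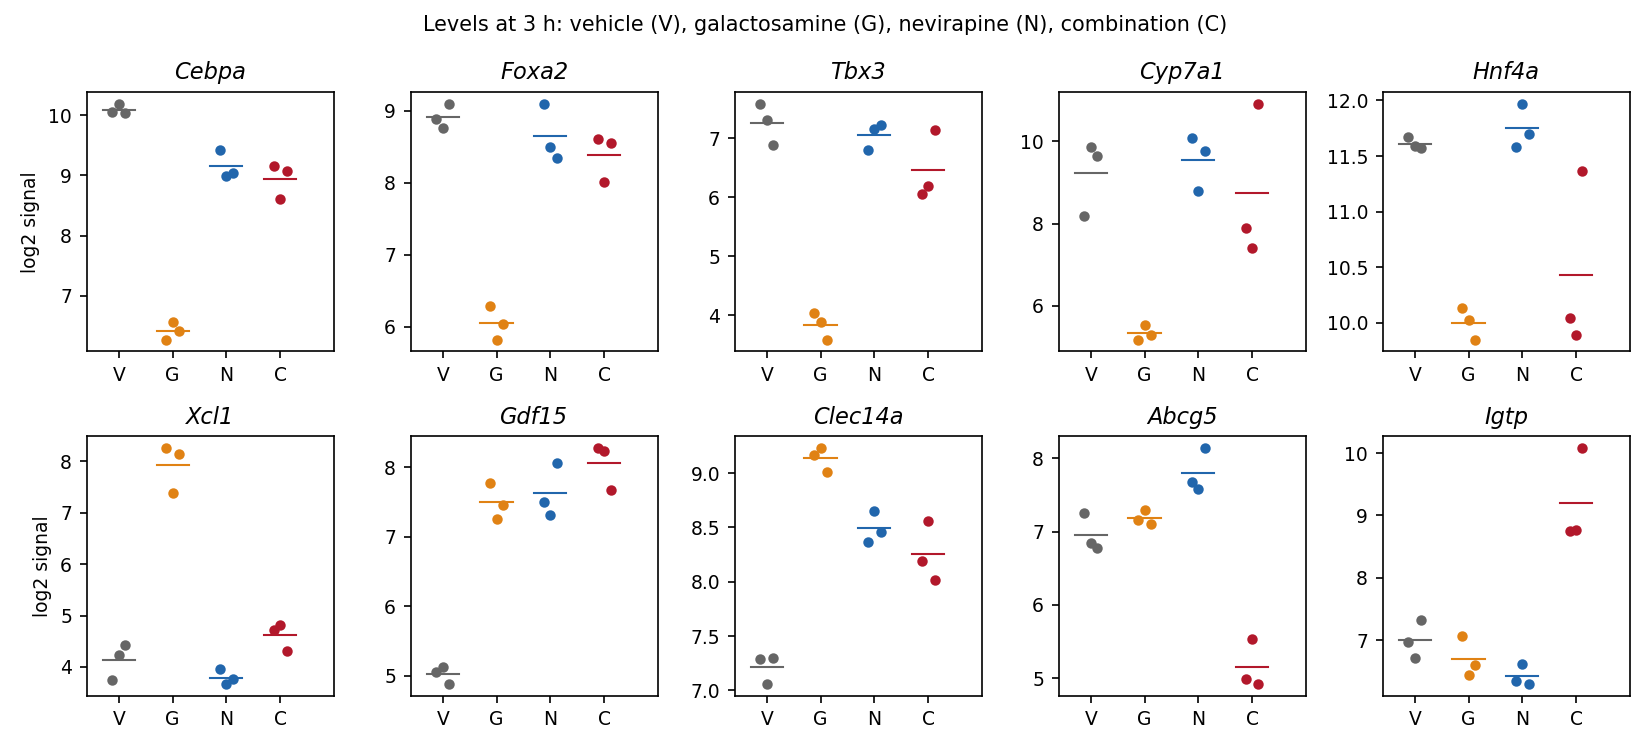
Log2 signal of 10 genes in each rat (points) with group means (bars) at 3 h after vehicle (V), galactosamine (G), nevirapine (N) and the combination (C), each panel on its own scale. Cebpa, Foxa2 and Tbx3 are low after galactosamine alone and near the nevirapine level after the combination, Hnf4a is low in rat61 and rat62 and not in rat63 (11.37), and Abcg5 and Igtp move with the combination and not with galactosamine alone.

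Several of the other largest falls were led by rat61 and rat62. Slc25a25, a mitochondrial ATP and phosphate carrier, was at 8.54, 7.92 and 10.80 against 10.83, 11.34 and 11.71, 4.61-fold lower (-2.21 ± 0.41, SE, n = 3 and 3, adjusted p = 0.00014). Rat63 was only just below the nevirapine rats, and without it the difference was -3.06. The call was lost from the 6 rats alone (0.12), and galactosamine alone lowered Slc25a25 by 3.16. Ppargc1a, the coactivator of mitochondrial and fasting genes, was at 4.73, 4.32 and 6.46 against 7.31, 6.55 and 7.20, 3.61-fold lower (adjusted p = 0.00025, 0.10 from the 6 rats alone). Rab30, a Golgi GTPase, at 6.96, 7.04 and 9.40 against 9.67, 10.65 and 10.46, and the lysophospholipid transporter Mfsd2a, at 7.48, 6.44 and 9.51 against 9.54, 10.17 and 10.66, had the same pattern, and so had Pde4dip and Zfp26, which were lost from the 6 rats alone (0.12 and 0.13).

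Usp2, a clock-controlled deubiquitinase, fell in all 3 rats, at 5.29, 5.53 and 5.75 against 7.94, 7.46 and 7.56, 4.37-fold lower (-2.13 ± 0.25, SE, n = 3 and 3, adjusted p = 1.9e-07), and by 1.97 with galactosamine alone. Fkbp5, a glucocorticoid-induced chaperone of the steroid receptors, was at 6.10, 6.26 and 6.90 against 8.38, 8.19 and 8.50. It did not overlap and was 3.83-fold lower (adjusted p = 8.0e-06), whereas galactosamine alone had no called effect (-0.03), with a difference of -1.91 ± 0.41 (SE, adjusted p = 0.0016). For Fkbp5 the nevirapine rats were above all vehicle rats (6.58 to 7.93), and the combination rats overlapped vehicle. Fkbp5 was at 5.81 to 6.15 after 15 d of nevirapine alone. Mmd2, of the progestin and adipoQ receptor family, fell 3.77-fold likewise, and Noct, a clock-controlled phosphatase of nicotinamide dinucleotides, fell 4.72-fold from nevirapine levels of 7.76, 8.92 and 9.76 that were above vehicle (5.86, 7.57 and 6.34). Acot1, an acyl-CoA thioesterase under PPAR-alpha, was at 5.01, 5.55 and 5.21 against 7.91, 9.44 and 6.57, 6.57-fold lower (adjusted p = 0.038). Its call was lost without any 1 of rat61, rat62, rat63, rat31 or rat32 (adjusted p = 0.059 to 0.23) and from the 6 rats alone (0.061). Ccnd1, a cyclin of cell cycle entry, fell 3.21-fold (adjusted p = 0.0056), lost without rat32 (0.067), and the ubiquitin ligase Trim36 fell 3.32-fold.

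Clock genes had 8 of 22 members lower and 0 higher, among them the repressors Cry2 (-0.81, adjusted p = 0.00049), Nr1d1 (-0.89, 0.029) and Nr1d2 (-0.79, 0.0055). The lower count was 5 without rat62. Per2 (0.15, 0.29) and Dbp (-0.94, 0.099) were not called. Of 36 immediate early genes, 4 were higher and 5 lower, near the 11% and 11.7% of all genes. The higher count was 2 without rat62, and the lower count 3 without rat61, 2 without rat62, 11 without rat63, 3 without rat32 and 3 without rat33. Dusp1, a phosphatase that ends MAP kinase signals, was at 9.45, 9.54 and 11.30 against 11.45, 11.84 and 11.82, and Nr4a1, an orphan receptor, at 5.27, 5.40 and 7.97 against 6.69, 9.19 and 9.13. Rat63 was just below the nevirapine range for Dusp1 and within it for Nr4a1, and both were called lower (adjusted p = 0.00017 and 0.013).

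Among metabolic lists, fatty acid oxidation had falls and no rises. Of 32 fatty acid oxidation genes and PPAR-alpha targets, 14 were lower and 0 higher (median -0.37), 2 from the 6 rats alone, and the lower count was 9 without rat61, 8 without rat62 and 6 without rat32. Cpt1a, the gate of mitochondrial fatty acid entry, was at 10.03, 10.27 and 11.11 against 11.73, 11.78 and 11.75, 2.44-fold lower (-1.28 ± 0.20, SE, n = 3 and 3, adjusted p = 2.1e-05), with rat63 the least lowered. Galactosamine alone lowered it by 1.30. Of 29 glucose and fasting genes, 7 were lower and 2 higher, and the lower count was 3 without rat62 and 11 without rat63. Irs2, an insulin receptor substrate, was at 6.96, 5.25 and 8.48 against 8.05, 8.41 and 8.81, and the insulin-like growth factor binding protein Igfbp1 fell by 1.25, both with rat63 inside the nevirapine range. Pklr, the liver pyruvate kinase, went the other way, at 8.21, 8.08 and 7.44 against 6.29, 6.61 and 6.68, 2.62-fold higher (adjusted p = 4.8e-07).

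Some lipid synthesis genes rose. Scd, the stearoyl-CoA desaturase, was at 11.42, 10.44 and 8.86 against 7.31, 5.90 and 7.47, 10.2-fold higher (3.35 ± 0.62, SE, n = 3 and 3, adjusted p = 0.00014), with rat61 highest. Galactosamine alone had no called effect on Scd (1.25, adjusted p = 0.12), but the difference between the comparisons was not called either (2.10 ± 0.88, SE, adjusted p = 0.12). Fasn, the fatty acid synthase, rose 2.00-fold (adjusted p = 0.0083). Srebf1, which drives both, was at 8.55, 8.28 and 8.03 against 7.60, 7.40 and 7.92 and not called (adjusted p = 0.091), while galactosamine alone lowered it by 1.57, a difference of 2.22 ± 0.39 (SE, adjusted p = 0.00021). Of 29 fatty acid synthesis and storage genes, 5 were higher and 4 lower, near the 11% and 11.7% of all genes. The higher count was 3 without rat62 and 3 without rat31, and the lower count 2 without rat62 and 2 without rat33. Of 21 cholesterol synthesis enzymes, 5 were higher and 1 lower. The higher count was 1 without rat62, 2 without rat63 and 1 without rat33, and 3 were lower without rat63. Idi1 rose 2.85-fold (adjusted p = 0.016), and Msmo1 and Cyp51 were called with rat63 and not without it (adjusted p = 0.070 and 0.11).

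Ribosome biogenesis genes formed the list with the largest share of falls, 25 of 45 lower and 0 higher (median -0.42), although 0 were called from the 6 rats alone, by limma, where 0.408% of all genes were lower. In 22 of the 45, called or not, the combination rats all lay below the nevirapine rats, against 10.6% of all genes. The lower count was 9 without rat61, 13 without rat62, 16 without rat32 and 15 without rat33. Over all genes it went from 1669 to 1007, 764, 1120 and 1134 in the same settings. Rrs1, an assembly factor of the large subunit, was at 6.73, 6.29 and 7.71 against 8.10, 8.18 and 8.09, 2.32-fold lower (adjusted p = 0.00034). The small nucleolar RNP protein Nop58 fell by 0.88 and the RNA polymerase I subunit Polr1b by 0.79, with rat63 the least lowered in each. Galactosamine alone lowered 13 and raised 5 of the list, and the difference between the comparisons was called lower for 7. Of 20 heat shock genes 6 were lower, including Dnajb1 (-0.84) and Bag3 (-0.74), and 0 from the 6 rats alone, with 3 without rat61, 1 without rat62, 10 without rat31, 2 without rat32 and 3 without rat33.

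Stress lists other than NRF2 were mixed. ATF4 targets had 3 of 33 higher and 2 lower, below the 11% and 11.7% of all genes. The higher count was 5 without rat63, and the lower count 1 without rat62, 7 without rat63, 5 without rat31 and 1 without rat33. Ddit3, which encodes CHOP, rose 2.53-fold (adjusted p = 0.0052), while Herpud1, a gene of endoplasmic reticulum degradation, was at 9.03, 8.35 and 9.11 against 10.34, 10.45 and 10.43, 2.97-fold lower (-1.57 ± 0.21, SE, n = 3 and 3, adjusted p = 1.6e-06). Endoplasmic reticulum chaperones had 5 of 22 higher and 2 lower, the former 3 without rat61, 2 without rat62, 2 without rat31 and 9 without rat32. Of 18 p53 targets, 2 were higher and 3 lower, the latter 1 without rat61, 0 without rat62, 5 without rat63, 5 without rat31, 1 without rat32 and 0 without rat33. Gadd45a, a p53 and stress target, was at 10.19, 8.84 and 10.26 against 9.22, 8.86 and 9.18 and not called, but galactosamine alone lowered it by 1.64, a difference of 2.32 ± 0.43 (SE, adjusted p = 0.00038). Of 34 apoptosis and death receptor genes, 6 were higher and 2 lower. The lower count was 0 without rat61, 0 without rat62, 5 without rat63 and 0 without rat33. Ripk3, the kinase of necroptosis, was at 6.17, 6.45 and 5.69 against 4.97, 4.85 and 4.75, 2.38-fold higher (adjusted p = 6.1e-05), and did not pass with galactosamine alone (0.17). The difference was 1.07 ± 0.31 (SE, adjusted p = 0.017).

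Genes of pyrimidine and galactose metabolism, the pathways galactosamine enters, had 5 of 33 higher and 1 lower. Upp1, a uridine phosphorylase, was at 7.34, 6.97 and 6.85 against 6.24, 6.34 and 6.20, 1.73-fold higher (adjusted p = 0.00035), and rose by 0.69 with galactosamine alone. Slc29a1, a nucleoside transporter, rose 1.81-fold (adjusted p = 4.5e-05) but fell with galactosamine alone (-0.41), a difference of 1.27 ± 0.21 (SE, adjusted p = 6.7e-05). Ugp2, which makes UDP-glucose, was not called (0.15, adjusted p = 0.62). Of 25 nuclear receptors and drug sensors, 8 were lower and 2 higher. Nr1i2, the gene of PXR, was at 8.01, 7.94 and 7.90 against 8.88, 8.50 and 8.86, 1.74-fold lower (adjusted p = 0.011), while Nr1i3, the gene of CAR, was not called (-0.15).

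Alb, serum albumin, was at 14.12, 14.14 and 14.16 against 14.16, 14.18 and 14.18 and not called. Of 31 hepatocyte secretory and metabolic genes, 1 was higher and 3 were lower, among them Apoa1, the main protein of high-density lipoprotein (-0.64, adjusted p = 8.3e-05). Of 28 acute phase genes, 5 were higher, including the iron hormone Hamp (0.93) and Crp (0.67), and 1 was lower, the interleukin-6 receptor Il6r (-1.23). The higher count was 1 without rat61, 2 without rat62, 3 without rat63, 8 without rat31, 1 without rat32 and 2 without rat33. None of the acute phase genes was called from the 6 rats alone by limma, where 2.61% of all genes were.

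Further genes parted from the galactosamine effect downwards. Xcl1, lymphotactin, is released by activated T and NK cells. It was at 4.71, 4.82 and 4.31 in the combination rats and 3.95, 3.67 and 3.76 in the nevirapine rats, near background in both (at least 1.19-fold higher, adjusted p = 0.00070). With galactosamine alone it was at 8.26, 7.39 and 8.15 against 3.74, 4.24 and 4.43, and no combination rat came within 2.5 log2 units of the galactosamine rats. The difference between the comparisons was called lower (adjusted p = 1.2e-10), also with only the 4 groups in the fit (0.0014), and has no size because nevirapine and vehicle lay below background. Gdf15, a stress cytokine, was at 8.28, 8.24 and 7.67 against 7.50, 7.32 and 8.07, not called, while vehicle was at 5.05, 5.12 and 4.88 and galactosamine at 7.77, 7.26 and 7.46. All 3 drug-treated groups thus stood over 2 log2 units above vehicle, and the difference was -2.05 ± 0.56 (SE, adjusted p = 0.013).

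Fmo2, a flavin monooxygenase, was at 4.24, 4.36 and 4.02 against 6.47, 5.03 and 4.78, at least 2.08-fold lower (adjusted p = 0.020), but was at least 2.16-fold higher with galactosamine alone. The combination and vehicle lay below background, so the difference between the comparisons has only a p (adjusted p = 0.0013). Igfbp2, an insulin-like growth factor binding protein, was at 9.06, 10.34 and 9.14 against 11.54, 11.29 and 10.20 (-1.50, adjusted p = 0.0043), with rat33 inside the combination range, and its difference was -2.26 ± 0.55 (SE, adjusted p = 0.0049). Zfp354a, a zinc finger factor first known from kidney, was at 7.33, 8.07 and 7.70 against 8.85, 8.39 and 9.33, 2.23-fold lower (adjusted p = 0.028). Its vehicle rats were lower than both, at 6.42, 6.82 and 5.99, and the difference between the comparisons was -2.06 ± 0.55 (SE, adjusted p = 0.011). Esm1, an endothelial proteoglycan, was at 3.96, 3.51 and 3.76 against 5.11, 4.16 and 5.80, at least 1.57-fold lower (adjusted p = 0.027). With galactosamine alone it was at 4.36, 6.44 and 3.66, where rat17 stood apart, and the combination and vehicle lay below background. The difference between the comparisons was called lower (adjusted p = 0.0014), but not with only the 4 groups in the fit (0.058). Serpina7, the thyroxine-binding globulin, was not called here (-0.77, adjusted p = 0.30). Its difference of -2.44 ± 0.71 (SE, adjusted p = 0.019) was lost with only the 4 groups in the fit (0.081). Sez6, known from neurons, was at 7.78, 8.22 and 7.68 against 6.92, 5.26 and 6.22, 3.38-fold higher, and fell with galactosamine alone (-0.88), a difference of 2.63 ± 0.47 (SE, adjusted p = 0.00022). Of all genes higher here, 273 were also higher in the difference between the comparisons, and 221 of the lower genes were also lower in it.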

How the data were processed

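Liver RNA of 50 rats in 17 groups was measured on arrays, 1 array per rat. The authors deposited log2 expression values for 31099 probe sets, made with RMA per the submitters' processing notes, which also name limma; versions are not given in the sources used here. RMA subtracts background, equalises distributions and summarises probes, so values are relative and hold no detection call. Depth does not apply to arrays, and the number of rats limits the precision.

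A probe set was named where the platform table gave 1 symbol (20826 probe sets; 436 had several symbols and 9831 had no entry there). For the 4525 genes with more than 1 probe set, the one with the highest mean over all arrays was used, and no gene described had another probe set called in the opposite direction. Differences were tested with limma 3.58.1 (R 4.3.3, lmFit and eBayes) over all 17 groups and 14217 genes, with Benjamini-Hochberg adjustment at 0.05. The spread thus came from all groups, and p-values weigh a difference against variation between rats pooled over the 17 groups. The median gene's SD was 0.1949 in the combination group and 0.1459 in the nevirapine group, against a median of 0.124 over the groups. Pooled p-values can therefore be too small for the combination and nevirapine rats. Tables and figures were made with Python 3.11.15, pandas 2.3.3, numpy 2.4.6, scipy 1.17.1 and matplotlib 3.10.9.

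The background level was the highest mean of 27 Bacillus subtilis control probe sets (log2 1.94 to 4.37). Where 1 group was below it, each of its rats was taken at the higher of its own value and that level, and the fold is written "at least". Where both were, no size is given. Genes were named by rule: the 15 largest called rises and falls whose groups did not overlap, the 10 largest called differences from the galactosamine effect in each direction, each leaving out symbols that start with LOC, RGD or MGC, ranked by fitted values also where a group lay below background, and members of the gene lists. The comparison, genes and lists were chosen with earlier results of these data known, the class II list and the ISRE and GAS motifs after their values were seen. Upstream sequences are from RefSeq (GRCr8). On simulated data of the same 14217 genes the main test called 73% of 200 genes moved 1.5-fold and 95.5% of 200 moved 2-fold, and the test of the difference between comparisons called 35% and 79.5%. The simulation gave each gene the same spread in all groups. The real combination group had the largest spread (median SD 0.1949), so recovery in the real comparison may be lower. Alternatives tried were the groups in the fit, the prior, a filter on dim genes (the dimmest 40%), the probe set rule, cyclic loess and quantile normalization, array weights, a GAPDH covariate, and leaving out rats.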

Additional observations from a re-analysis of the deposited data

Results flagged for a closer look

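The combination difference and the galactosamine difference were tested against each other, (combination minus nevirapine) minus (galactosamine minus vehicle). This difference was called by limma for 1680 genes. Days and dose of nevirapine and the sampling hours differ within the first comparison only, so this test holds them too. The genes below were picked for inspection because that test called them, and no explanation was weighed.

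The combination difference lay above the galactosamine difference for Sult1e1 (3.49 on the log2 scale), Cebpa (3.47), Cyp7a1 (3.08), Igtp (3.07), Tbx3 (2.82), Ccl11 (2.81), Bcl3 (2.70), Sez6 (2.63), Foxa2 (2.62) and Irgm2 (2.60). For Cebpa, Tbx3, Foxa2, Cyp7a1 and Irgm2 the galactosamine effect was a fall that was not called in the combination. It lay below for Xcl1 (-2.97), Esm1 (-2.89), Abcg5 (-2.88), Fmo2 (-2.63), Serpina7 (-2.44), Igfbp2 (-2.26), Ccnd1 (-2.25), Clec14a (-2.16), Zfp354a (-2.06) and Gdf15 (-2.05). For Abcg5 the fall came with the combination. For Clec14a and Serpina7 the rise was called with galactosamine alone and not here, and for Xcl1 it was called in both. At least 1 of the 4 groups lay below background for Tbx3, Ccl11, Xcl1, Esm1 and Fmo2, so their values come from the fit and are not sizes.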

How the results depend on the processing

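No alternative turned the sign of a named gene's difference, but the balance of higher and lower calls turned over with the scaling. Cyclic loess normalization gave 1678 higher and 1666 lower genes for the combination against nevirapine and 978 and 903 at 15 d (729 and 1249 before), and quantile normalization gave 839 and 912 for the difference between the comparisons, 2521 and 2342 for galactosamine alone and 1005 and 1047 at 48 h (1557 and 915 before). With only the compared groups in the fit, the genes called between combination and nevirapine went from 3239 to 371, those of the difference between the comparisons from 1680 to 697, and those of nevirapine at 15 d rose from 1978 to 4299. Such a fit takes the spread from fewer rats and from the compared groups alone. The median gene's SD was 0.1949 in the combination group and 0.0895 in the 15 d nevirapine group, and the part of each was not tested. Array weights gave 4652 in place of 2472 at 48 h and 5018 at 15 d; for the change with array weights the cause was not tested. Leaving out 1 rat at a time gave 1588 to 4388 genes for the combination against nevirapine (lowest without rat62, highest without rat63), 1294 to 1827 for the difference between the comparisons, 1359 to 2094 at 48 h (1359 without vehicle rat12, 1534 without nevirapine rat40) and 1147 to 1480 at 15 d (1147 without nevirapine rat44, 1253 without rat45, 1294 and 1316 without vehicle rat13 and rat14). The counts for galactosamine alone, 3862 to 4304, stayed within 1.5 times of 4680. Of the 30 largest rises and falls, 18 kept their call under every setting run and 27 under every setting other than the fit of the compared groups, and of the 20 genes of the difference 14 and 15 did. No paired analysis was possible because rat numbers are unique and no number is shared between groups. The number of rats, 3 per group, and signals near background limit what the test can show.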
